A study of Mus musculus with 12 samples.

Results

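RNA of dissected hypothalamic tissue was compared between mice given a virus for dominant-negative AMPK (DN) and mice without it (CTRL). The libraries were those made before any pull-down, called inputs, and they were chosen by title: 3 DN inputs and 3 CTRL inputs, 6 of the 12 libraries in the series. The source of each is labelled dissected ventromedial nucleus (VMN), while the text on the design speaks of hypothalamus, so how closely the nucleus was cut out is not known. Each input was 1 pool of 6 animals, and the other 6 libraries, called outputs, hold RNA pulled down with tagged ribosomes from SF1 cells, numbered by pool like the inputs.

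All mice were on regular chow and were taken after a night of fasting. All of them received an adeno-associated virus (AAV) coding for GFP fused to the ribosomal protein L10, which lets ribosomes be pulled down. The DN mice also received, in the VMN, an AAV for dominant-negative AMPK, a form of the kinase that blocks the normal one. The treatment text attached to the CTRL libraries names that second virus too, but their characteristics say that they lacked the mutant, and the characteristics were followed. Whether CTRL mice received another second virus is not stated, so the construct and a second virus cannot be told apart. The sources used here do not give strain, sex, age, the promoters in the viruses or the time after injection.

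AMPK is a kinase made of a catalytic alpha, a scaffolding beta and a nucleotide-binding gamma subunit, and it is switched on when ATP falls. It favours the breakdown of fuel and the making of mitochondria over synthesis, in part by restraining the kinase mTOR. The VMN is a hypothalamic nucleus that takes part in energy expenditure and glucose balance, and its neurons are marked by SF1, the product of Nr5a1. An input holds RNA of all cells in the piece of tissue, glia and vessels included, so in what follows fewer cells of a type and less RNA per cell cannot be told apart.

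The inputs had 37.2 to 55.5 M (mega) gene counts each, of which genes of the mitochondrial chromosome took 74.9% to 79.7%. Nuclear genes therefore shared 8.54 to 11.3 M counts per library. Levels of nuclear genes are given as CPM, counts brought to a common library total among nuclear genes alone (TMM factors over the 6 inputs), and levels of mitochondrial genes as CPM scaled with all genes. Both carry TMM factors, so these CPM differ from plain shares of gene counts. Log2 fold changes are DN against CTRL, with standard errors (SE) from edgeR's quasi-likelihood test. An adjusted p under 0.05 over all genes tested counts as a call, and groups are said to be apart where all 3 DN inputs lay on 1 side of all 3 CTRL inputs. The p-values measure the spread between these pools only. One library stood apart: the CTRL pool 3 input had far more interferon-induced RNA than the other 5, as shown further on, and results that rest on it are given with and without it. No pair of inputs was a copy of another.

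With all genes in the fit, 1 of 13221 genes passed (0.00756% of genes tested), the mitochondrial ribosomal RNA gene mt-Rnr1, and 589 (4.46%) had an unadjusted p under 0.05. With nuclear genes alone, edgeR called 0 of 13254 genes (0% called), the smallest adjusted p was 0.998, and 579 genes (4.37%) had an unadjusted p under 0.05. DESeq2 called 2 (0.0151%) in either fit, Prtg and Fat4, both lower in DN. Limma-voom called 1 nuclear gene (0.00754%), Calm2, higher in DN, and 8 (0.0605%) with all genes. What follows is therefore mainly a description of levels, and "higher" or "lower" without a call means where the libraries lay.

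Mitochondria carry their own small chromosome, which codes for 13 proteins of the respiratory chain, 2 ribosomal RNAs and transfer RNAs. Of the 13 protein genes, 5 had no more than 1 count over all 6 inputs: mt-Atp6 and mt-Atp8 of ATP synthase, mt-Co2 and mt-Co3 of cytochrome oxidase, and mt-Nd4l of complex I. Mouse chromosome 1 holds a nuclear copy of this stretch, annotated as pseudogenes, and a read that matches both places equally well is not unique. The copy Gm10925 (GRCm38, chr1:24613974-24614651, minus strand) matched mt-Atp6 (M, 7927 to 8607) over 678 of its bases with 0 mismatches. The first 60 bases of the annotated transcripts (GENCODE M21) are shown because they are identical at 60 of 60 positions.
mt-Atp6: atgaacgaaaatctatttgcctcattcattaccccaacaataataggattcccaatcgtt
Gm10925: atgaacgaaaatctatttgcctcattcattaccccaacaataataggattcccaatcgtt
The copies Gm28661 of mt-Co2, Gm28437 of mt-Co3 and Gm10222 of mt-Nd4l were also without a mismatch, over 681, 783 and 294 bases. mt-Nd3, with 184 counts over the 6 inputs, had 1 mismatch to Gm28438 over 345 bases. mt-Nd4 shared its first 876 bases (63.6%) with Gm28439, and mt-Co1 shared 483 bases (31.3%, 1 mismatch) with Gm29216, so reads of those stretches match both places. No annotated transcript copied mt-Rnr1, mt-Rnr2, mt-Nd1, mt-Nd2, mt-Nd5, mt-Nd6 or mt-Cytb at 98% identity or more. mt-Atp8 also had 0 counts, and its last 43 bases (21.1%) were copied in the annotated transcript Gm10925. Sequence between annotated transcripts was not searched for the rest of mt-Atp8, and why it had no counts was not tested. The 5 genes at or near 0 could not be compared between groups.

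The mitochondrial share of gene counts was 74.9%, 75.7% and 77.0% in CTRL pools 1, 2 and 3 and 79.7%, 77.6% and 78.6% in DN pools 1, 2 and 3. Every DN input lay above every CTRL input. The means were 75.9% ± 1.09 (SD, n = 3) and 78.6% ± 1.03, a difference of 2.78 percentage points (exact permutation test, two-sided, p = 0.1, the smallest that 3 against 3 allows). Counted per nuclear count, the inputs held 2.98, 3.11 and 3.35 mitochondrial counts in CTRL and 3.92, 3.47 and 3.67 in DN, again without overlap. Ribosomal RNA, which made up most mitochondrial counts in both groups, held 2.09 points of the difference. It took 68.0% ± 0.550 of gene counts in CTRL and 70.1% ± 1.27 in DN (exact permutation p = 0.1). Mitochondrial mRNA took 7.88% ± 0.593 and 8.56% ± 0.241, a difference of 0.684 points with overlapping groups (exact permutation p = 0.3). Per 1000 ribosomal counts there were 116 ± 7.93 mRNA counts in CTRL and 122 ± 5.66 in DN, also with overlap (exact permutation p = 0.3). The change was thus not shown to be larger in ribosomal RNA than in mRNA.

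mt-Rnr1 codes for the 12S RNA of the small mitochondrial ribosomal subunit (ENSMUSG00000064337, chromosome M, 70 to 1024). It had 159240, 149810 and 171020 CPM in CTRL pools 1, 2 and 3 and 243910, 235840 and 202410 in the DN pools. All 3 DN inputs were above all CTRL inputs, and mt-Rnr1 rose by 0.51 ± 0.06 on the log2 scale (edgeR adjusted p = 0.0479, 95% interval 0.37 to 0.64). The call was close to the threshold and ended under 11 of 14 alternatives: adjusted p was 0.136 with DESeq2 and 0.96 with limma-voom, and it was above 0.05 without DN pool 1 or 2 or without CTRL pool 1 or 2 (0.251 to 0.82), while the change stayed between 0.36 and 0.58. mt-Rnr2, the 16S RNA of the large subunit, had 434530, 484250 and 485810 CPM in CTRL and 571110, 482850 and 546430 in DN. Its groups overlapped, since DN pool 2 lay below CTRL pools 2 and 3 (log2 0.19 ± 0.06, adjusted p = 0.997).

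The 2 ribosomal RNAs lie next to each other and are made in 1 transcript, and their proportion differed between the groups. mt-Rnr1 gave 26.8%, 23.6% and 26.0% of mitochondrial ribosomal counts in CTRL inputs and 29.9%, 32.8% and 27.0% in DN inputs. The groups did not overlap, but DN pool 3 was just above CTRL pool 1 (25.5% ± 1.66 and 29.9% ± 2.89, SD, n = 3, exact permutation p = 0.1). In the outputs of the same pools the share was 41.1% to 43.4% in all 6 libraries, CTRL and DN mixed.

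Of the mitochondrial mRNAs with unambiguous sequence, those of complex I had the largest log2 fold changes. Outside complex I only mt-Cytb was in that set, and complexes were not tested against each other. mt-Nd2 (M, 3914 to 4951), a core subunit of complex I, had 2817, 3314 and 3852 CPM in CTRL and 5011, 5188 and 4629 in DN. Every DN input was above every CTRL input, with a log2 fold change of 0.57 ± 0.10 (edgeR unadjusted p = 0.000147, adjusted p = 0.818). mt-Nd5 had 12624, 14164 and 15447 CPM in CTRL and 19161, 18016 and 17794 in DN, and mt-Nd1 7767, 8734 and 9509 in CTRL and 11617, 11612 and 10739 in DN. Both were complex I subunits with all DN inputs above all CTRL inputs, at 0.38 ± 0.07 and 0.39 ± 0.08. mt-Nd6, the 1 protein gene on the other strand (13552 to 14070), had 1084, 1135 and 1235 CPM in CTRL and 1615, 1709.5 and 1431 in DN, at 0.46 ± 0.10. The sources used here do not say whether reads were counted by strand, so reads of the opposite strand's transcript across mt-Nd6 cannot be told apart from its own.

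Log2 fold changes of the other complexes were smaller, with 95% intervals that overlapped those of the complex I genes above. mt-Cytb of complex III had 14570, 15331 and 17721 CPM in CTRL and 19619, 19534 and 19481 in DN, at 0.30 ± 0.07 on the log2 scale. The 3 DN values lay close together and above all CTRL values. mt-Co1 of complex IV had 20381, 20320 and 25404 CPM in CTRL and 27190, 25643 and 27495 in DN (log2 0.28 ± 0.08), so CTRL pool 3 came close to DN pool 2 without reaching it. Of the complex I genes that share sequence with nuclear copies, mt-Nd4 stood at 0.41 ± 0.09, also apart and not smaller than mt-Nd1 or mt-Nd5. mt-Nd3, also of complex I, rested on 20 to 45 counts per library and had 0.26 with a 95% interval of -2.07 to 2.58.

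Groups were apart for 11 of the 15 mitochondrial genes tested, all higher in DN, beside 10.6% of all genes tested in that fit (5.21% higher in DN). The genes of 1 chromosome that is transcribed as a unit are not independent, so this count is close to 1 observation. It also depends on the scale, since these CPM carry TMM factors. As plain shares of gene counts the mRNAs together overlapped, with 8.33% in DN pool 1 and 8.56% in CTRL pool 3. mt-Cytb had 952713 of 55.5 M gene counts in DN pool 1 and 686678 of 37.2 M in CTRL pool 3, a lower plain share in the DN pool. The 11 were 8 of 10 protein and ribosomal RNA genes and, at low levels, 3 of 5 transfer RNA genes (mt-Tc, mt-Tm and mt-Tn, named after their values were seen). On the TMM scale, the lowest DN input stood above CTRL pool 3 in all 6 of the mRNA genes mt-Nd1, mt-Nd2, mt-Nd4, mt-Nd5, mt-Co1 and mt-Cytb. CTRL pool 3 was the highest CTRL input in each. Without that library, 8 genes passed by edgeR in the fit of all genes (adjusted p = 0.00838 to 0.0275): mt-Rnr1, these 6 and B2m. It was singled out after its values were seen. Leaving out the CTRL input nearest to DN in these mRNA genes widens the gap, so these calls describe and support nothing. With limma-voom on all 6 inputs, the 6 mRNA genes and mt-Nd6 passed (adjusted p = 0.000539 to 0.00312) while mt-Rnr1 did not.

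**Figure D1:**
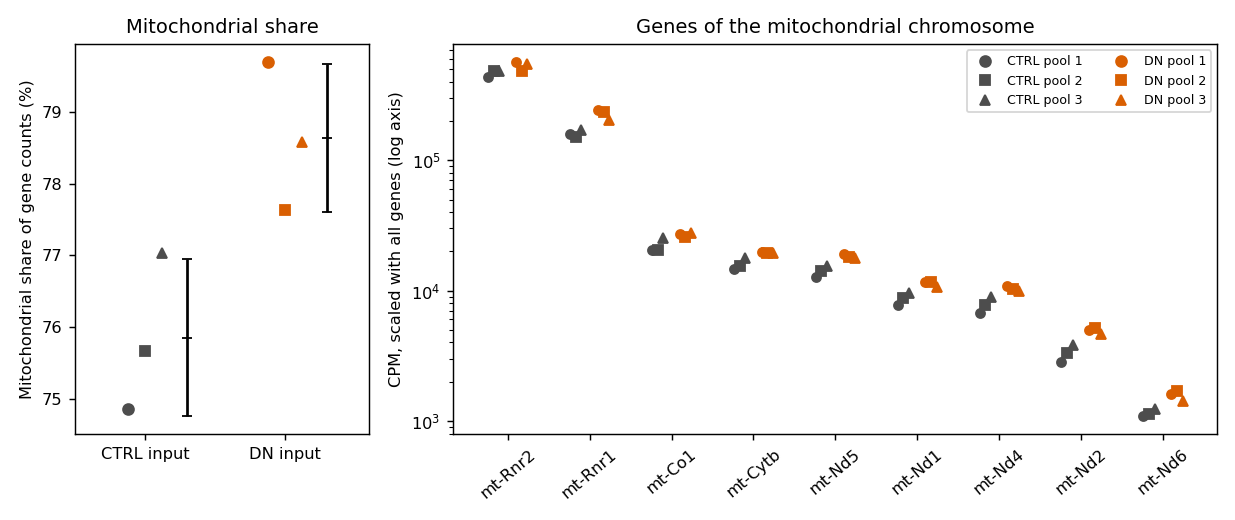
The left plot gives the percentage of gene counts on the mitochondrial chromosome in each input, with the mean and SD of 3 pools beside the points, on an axis that does not start at 0; the 3 DN inputs lie between 77.6% and 79.7%, above the CTRL inputs at 74.9% to 77.0%. The right plot gives CPM of 9 mitochondrial genes in each input, scaled with all genes by TMM factors, on a log axis. On this scale all DN points lie above all CTRL points except for mt-Rnr2.

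Fewer nuclear genes had a count in the DN inputs. CTRL pools 1, 2 and 3 had at least 1 count in 17002, 16926 and 16526 nuclear genes, and DN pools 1, 2 and 3 in 16143, 15265 and 16015. Nuclear counts were alike in both groups (means of 10.2 M and 10.4 M, exact permutation p = 0.8). At an equal 8.54 M nuclear counts per library the expected numbers were 16736, 16666 and 16526 in CTRL and 15892, 15136 and 15885 in DN (16643 ± 107 against 15638 ± 435, exact permutation p = 0.1). No DN input reached a CTRL input, and the share of counts outside genes did not set the groups apart (16.6% ± 0.210 and 16.5% ± 0.484 of the file). Genes of at least 5 CPM on average that had 0 counts in a library numbered 24 to 27 in each CTRL input and 38, 80 and 37 in DN pools 1, 2 and 3. DN inputs were also less alike among themselves: log2 levels over 10556 genes correlated at 0.819 to 0.848 between DN inputs, 0.866 to 0.913 between CTRL inputs and 0.827 to 0.883 between groups. Some of the genes described below as lower in DN had few or no counts there, and the part of this smaller number of genes in them was not tested.

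The nuclear genes of the respiratory chain were mostly positive in the same direction as the mitochondrial ones. Of 39 tested genes for complexes II to V, 26 were positive, with a median log2 fold change of 0.24, beside 51% of all nuclear genes tested and a median of 0.01 over all. Their summed level was 4285, 4202 and 4675 CPM in CTRL and 4773, 5180.3 and 4692 in DN. All DN sums were above all CTRL sums, although DN pool 3 exceeded CTRL pool 3 only barely. Atp5b, the catalytic beta subunit of ATP synthase, had 1568, 1530.3 and 1789.8 CPM in CTRL and 1798, 1864 and 2027 in DN (log2 0.22 ± 0.11, edgeR unadjusted p = 0.0717). Atp5g3, a subunit of its rotor, had 179, 139.8 and 141 CPM in CTRL and 188, 267 and 200.4 in DN (0.51 ± 0.23, unadjusted p = 0.0431). Both were higher in every DN input than in every CTRL input. Of the 39 genes, 2 were apart and higher in DN and 1 was apart and lower, beside 4.87% and 5.58% of nuclear genes. Atp5b made up a large part of each sum. With Atp5b taken off, the sums overlapped, DN pool 3 lying below CTRL pool 3.

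Of 37 nuclear genes of complex I, 26 were positive with a median of 0.14. Their sums overlapped, at 1011, 1083 and 1455 CPM in CTRL and 1236, 1428 and 1208 in DN, because CTRL pool 3 was the highest of all 6. Ndufa4, counted here with complex I and also found in cytochrome oxidase, had 118, 114 and 111 CPM in CTRL and 123, 174 and 141 in DN (0.35 ± 0.24). No gene of either list had an adjusted p under 0.998 by edgeR, and 1 of the 39 and 0 of the 37 had an unadjusted p under 0.05, beside 4.37% of all nuclear genes.

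The genes that copy and translate mitochondrial DNA did not share that direction. Of 24 tested, 11 were positive (median -0.18). Polrmt, the mitochondrial RNA polymerase, had 0.446, 0.456 and 0.232 CPM in CTRL and 8.59, 3.83 and 5.22 in DN (log2 3.91 ± 1.2, edgeR unadjusted p = 0.00684). Mterf3, a regulator of mitochondrial transcription and ribosome assembly, had 30.6, 32.1 and 21.8 CPM in CTRL and 70.4, 69.8 and 52.9 in DN (1.19 ± 0.38, unadjusted p = 0.00833). All DN inputs lay above all CTRL inputs for both genes, though Polrmt was under 1 CPM in CTRL. Fastkd2, which binds mitochondrial ribosomal RNA and was named after its value was seen, went the other way at -1.47 ± 0.59.

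Genes that set how many mitochondria a cell makes, listed together with genes of uncoupling proteins such as Slc25a27, had no common direction. Of 12 tested, 7 were positive (median 0.03, and -0.27 without DN pool 2), 4 had all DN inputs below all CTRL inputs (5.58% of nuclear genes did), and 1 had all above (4.87%). The last was Pprc1, a relative of PGC-1alpha, and the lower ones were Ppargc1a, Ppargc1b, Gabpa and Slc25a27, of which those outside the rule were named after their values were seen. Ppargc1a, the coactivator PGC-1alpha that AMPK is known to act on, had 305, 278 and 319 CPM in CTRL and 251, 196 and 261 in DN. Its DN inputs were all lower, at -0.35 ± 0.19 on the log2 scale (edgeR unadjusted p = 0.0869). Genes of fission, fusion and mitophagy had 9 of 17 positive with a median of 0.03, which was below 0 when any library but DN pool 3 was left out.

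Transcripts of AMPK itself were measured at 6 of 7 subunit genes. Prkaa2, the alpha2 catalytic subunit (ENSMUSG00000028518), had 190, 208 and 144 CPM in CTRL and 92.8, 145 and 149.5 in DN. The groups overlapped, with DN pool 1 the lowest of all, and the log2 fold change was -0.48 ± 0.26 (95% interval -1.05 to 0.08, edgeR unadjusted p = 0.0858). Prkaa1, the alpha1 subunit (ENSMUSG00000050697), had 96.9, 107 and 104 CPM in CTRL and 121, 219 and 66.5 in DN. DN pool 2 held the highest and DN pool 3 the lowest level of the 6 inputs (0.40 ± 0.37, interval -0.39 to 1.2). The counts cannot tell a viral Prkaa transcript from the mouse gene's own, and the sources used here do not say which subunit or isoform the construct carries.

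The scaffolding subunits Prkab1 and Prkab2 stood at -0.64 ± 0.89 and 0.09 ± 0.45, and the regulatory subunits Prkag1 and Prkag2 at 0.31 ± 1.12 and -0.42 ± 0.67. All 4 had overlapping groups, and Prkab1 and Prkag1 were at most 16.3 and 4.79 CPM in any input. Prkag3, the subunit of skeletal muscle, had 0 counts in all 6. Among 9 kinases and partners that act above AMPK, 8 were positive (median 0.25). Stk11, the kinase LKB1 that activates AMPK, had 12.4, 17.7 and 13.9 CPM in CTRL and 16.4, 38.7 and 11.5 in DN (0.59 ± 0.61, interval -0.74 to 1.93), with only DN pool 2 outside the CTRL range on the high side. Without DN pool 2 the values of Prkaa1 and Stk11 were -0.12 and -0.070.

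The mTOR pathway, which AMPK restrains, was the list with the most negative median of the 4 lists on AMPK, its upstream kinases, mTOR and autophagy. Of 14 tested genes 5 were positive, with a median of -0.35, and their summed level was 1042, 1046 and 1067 CPM in CTRL and 849, 1034 and 936 in DN. Every DN sum was below every CTRL sum, DN pool 2 by little, and the median was -0.16 without DN pool 1. Deptor, an inhibitor within both mTOR complexes, had 259, 182 and 196 CPM in CTRL and 119, 135 and 142 in DN. The groups did not overlap, at -0.69 ± 0.23 (edgeR unadjusted p = 0.0100). Rheb, the GTPase that switches mTOR complex 1 on and which was named after its value was seen, was at 0.70 ± 0.27. Autophagy genes, which AMPK promotes, were mixed, with 13 of 21 positive: Sqstm1, a cargo receptor, at 0.58 ± 0.31 and Ambra1, a scaffold of autophagy initiation, at -1.05 ± 0.47, where DN pool 3 lay within the CTRL range.

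Txn2 codes for the thioredoxin of mitochondria, a small protein that reduces oxidized partners there. It had 8.65, 4.46 and 4.18 CPM in CTRL inputs and 14.0, 27.6 and 16 in DN inputs. All DN inputs lay above all CTRL inputs, at 1.73 ± 0.69 on the log2 scale (95% interval 0.22 to 3.24, edgeR unadjusted p = 0.0278, adjusted p = 0.999). Prdx2, a peroxiredoxin of the cytosol, had 110.2, 93.0 and 92.4 CPM in CTRL and 159, 144 and 155 in DN and was apart as well (0.63 ± 0.24). Sod2, the superoxide dismutase of mitochondria, had 341, 301 and 365 CPM in CTRL and 413, 511 and 401 in DN, again with the DN inputs above (0.40 ± 0.17). In the list of thioredoxins and peroxiredoxins 12 of 16 genes were positive (median 0.29, and 0.55 without CTRL pool 3), and among glutathione and NRF2 genes 13 of 21 (median 0.10). Txn2 was named with earlier results of these samples known, so its value is a description.

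Across nuclear genes, the genes named by rule were protein-coding genes with no overlap between groups and at least 5 CPM in the higher group, the 12 with the smallest p in each direction. Groups did not overlap for 10.4% of the nuclear genes tested, 4.87% higher and 5.58% lower in DN, and an unadjusted p under 0.05 was found for 312 higher (2.35%) and 267 lower (2.01%). The 24 genes were picked for their values, so the separation in what follows is a description. Their edgeR adjusted p was 0.998 or above.

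The 3 most abundant of the higher genes differed least. Calm2, 1 of the genes for the calcium sensor calmodulin, had 4371, 3803 and 4954 CPM in CTRL and 5771, 5842 and 5600.2 in DN (0.39 ± 0.10, limma-voom adjusted p = 0.0427). Its 3 DN values lay closer together than the CTRL values. Snhg11, a host gene of small nucleolar RNAs expressed in neurons, had 709.7, 656 and 765 CPM in CTRL and 1275, 1023 and 1019 in DN (0.64 ± 0.14, edgeR unadjusted p = 0.000591). It had the smallest p of all nuclear genes. Ppp2r3a, a regulatory subunit of the phosphatase PP2A, had 131, 178 and 190.4 CPM in CTRL and 306, 279.9 and 301 in DN (0.83 ± 0.20).

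Adi1 of the methionine salvage pathway had 89.4, 74.8 and 57.5 CPM in CTRL and 135, 202 and 132 in DN (1.08 ± 0.29). Rexo2, an exonuclease that clears short RNA fragments in mitochondria, had 48.1, 54.1 and 57.5 CPM in CTRL and 147, 101 and 109 in DN (1.16 ± 0.29). Vac14, a scaffold for making the lipid PI(3,5)P2, had 22.6, 17.4 and 32.0 CPM in CTRL and 94.0, 47.7 and 87.0 in DN (1.67 ± 0.42). For these 3 genes the DN inputs stood clear of all CTRL inputs. Npsr1, the receptor of neuropeptide S, had 4.73, 13.2 and 10.5 CPM in CTRL and 54.6, 37.0 and 33.0 in DN (2.13 ± 0.56), and Smpd4, a neutral sphingomyelinase, 13.3, 7.74 and 12.1 in CTRL and 28.5, 81.1 and 39.0 in DN (2.16 ± 0.54). Taf5, a subunit of the transcription factor TFIID, had 17.6, 13.5 and 9.76 CPM in CTRL and 44.4, 143 and 26.4 in DN, so its mean was carried by DN pool 2 (2.38 ± 0.60).

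The remaining 3 were low in the CTRL inputs. Cage1, a gene known from testis, had 2.14, 4.92 and 7.09 CPM in CTRL and 25.4, 32.8 and 23.3 in DN (2.53 ± 0.66). Gldc, the glycine decarboxylase of astrocytes, had 0.267, 0.0911 and 0.697 CPM in CTRL and 12.9, 10 and 5.53 in DN (4.73 ± 1.21). The third, 1810024B03Rik, had 3 counts over the CTRL inputs against 284 over the DN inputs, of which DN pool 2 held 249. The log2 fold change was 6.41 ± 1.69, and 3.90 without DN pool 2. The ratio of counts was 95.6 with an exact 95% interval of 32.4 to 466, which covers counting error only.

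The lower genes were less abundant. Irgq, a GTPase-like protein of autophagy, was the most abundant, with 205, 253 and 199.9 CPM in CTRL and 111, 119.5 and 109 in DN (-0.96 ± 0.22). Tut7, an enzyme that adds uridines to RNA ends, had 72.7, 109 and 96.5 CPM in CTRL and 33.8, 22.4 and 40.9 in DN (-1.52 ± 0.37). Fat4, a giant cadherin of planar cell polarity, had 58.0, 49.4 and 52.9 CPM in CTRL and 13.9, 17.3 and 14.0 in DN (-1.82 ± 0.43, DESeq2 adjusted p = 0.0393). In all 3 genes the replicates of each group lay close together, with DN at well under the CTRL level.

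Wasf2, an activator of actin branching, had 36.7, 58.4 and 31.0 CPM in CTRL and 13.8, 7.86 and 10.8 in DN (-1.95 ± 0.52), and Atic, of purine synthesis, 31.8, 20.3 and 57.2 in CTRL and 4.43, 7.24 and 10.8 in DN (-2.28 ± 0.62). Atic uses up ZMP, a purine intermediate that activates AMPK when it builds up. Itga6, the alpha6 integrin of endothelium and other cells, had 35.7, 21.6 and 28.2 CPM in CTRL and 2.26, 6.82 and 6.76 in DN (-2.43 ± 0.66). Ppp1r8, a nuclear inhibitor of the phosphatase PP1, had 27.8, 32.6 and 15.2 CPM in CTRL and 4.70, 2.58 and 5.12 in DN (-2.60 ± 0.67). No DN input reached a CTRL input in any of these 4.

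The other 5 had almost no counts in DN. Prtg, a receptor of the embryonic nervous system, had 22.4, 8.38 and 12.9 CPM in CTRL and 0.452, 0 and 0 in DN (-6.43 ± 1.40, DESeq2 adjusted p = 0.00113). Postn, a matrix protein of meninges and vessel walls, had 9.99, 7.11 and 15.3 CPM in CTRL and 1.18, 0.517 and 0.614 in DN (-3.79 ± 1.02), and Ncapd2, a condensin subunit, 1.87, 8.29 and 12.2 in CTRL and 0.181, 0 and 0.205 in DN (-5.72 ± 1.48). Adam5, a metalloprotease-like gene, had 163 counts over the CTRL inputs and 0 over the DN inputs, at least 53.8-fold lower against a floor of 3 counts over the group. Stk36, a kinase of motile cilia, had 212 counts in CTRL and 2 in DN, a ratio of 105 (exact interval 28.7 to 873, counting error only). Each of the 5 was present in all 3 CTRL inputs.

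**Figure D2:**
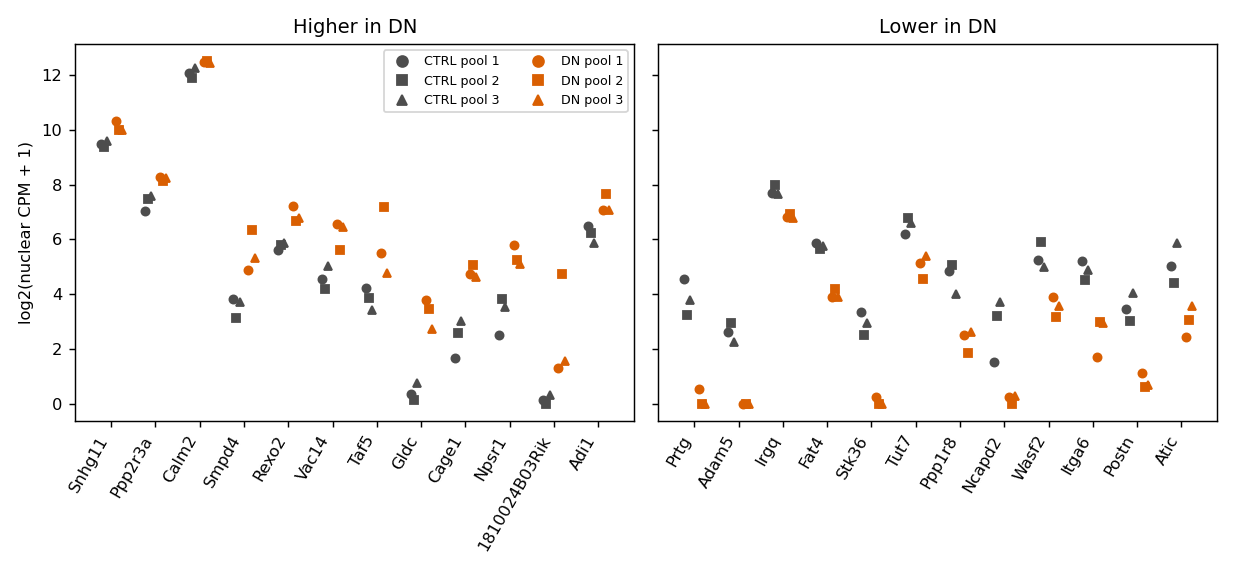
Each point is 1 input, as log2 of nuclear CPM plus 1, for the 12 genes higher (left) and the 12 lower (right) in DN with the smallest unadjusted p among genes whose groups did not overlap. The separation is by choice of the genes; the lower genes include 5 that lie at or near 0 in every DN input, while Calm2, Snhg11 and Irgq are abundant in both groups.

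How small a difference these libraries could show depended on the level. The median half-width of the 95% interval of a log2 fold change was 2.92 below 5 CPM, 1.84 from 5 to 20 CPM, 1.0 from 20 to 100 CPM, 0.53 from 100 to 500 CPM and 0.32 above. Among the 326 genes of 500 CPM or more, 58.9% were positive and 32 had an unadjusted p under 0.05, of which 28 were higher in DN (9.82%, beside 4.37% of all nuclear genes). Below 5 CPM, 44.3% of 2698 genes were positive, and 67 of the 95 with an unadjusted p under 0.05 were lower in DN. Abundant genes thus leaned to higher and scarce genes to lower in DN, on a scale where the median of all genes was 0.01.

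**Figure D3:**
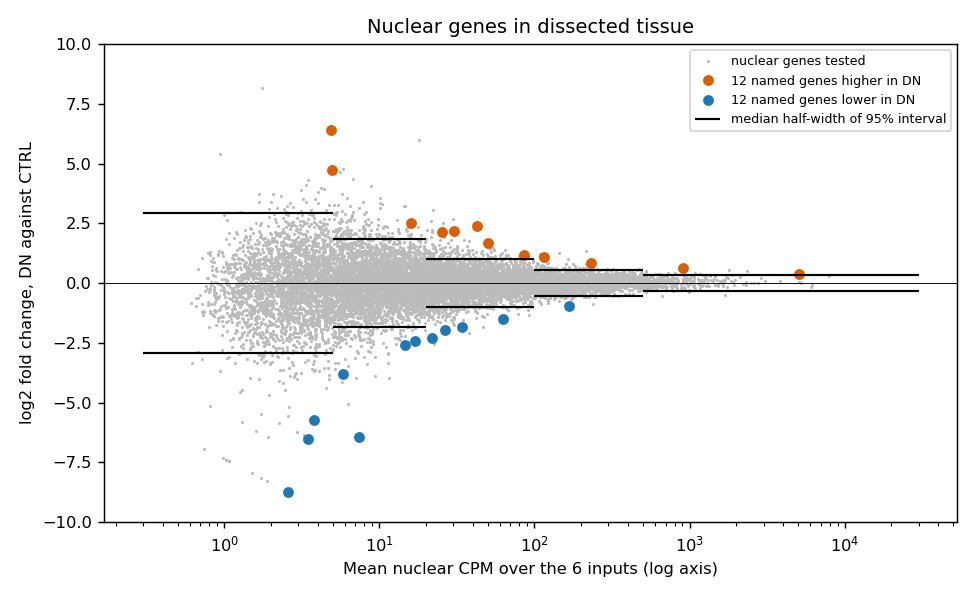
Each grey point is a nuclear gene, with its mean nuclear CPM over the 6 inputs on a log axis and its log2 fold change of DN against CTRL. Black lines give the median half-width of the 95% interval in each range of levels, from 2.92 below 5 CPM to 0.32 at 500 CPM and above; the 24 named genes lie outside them by choice.

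The VMN was labelled as the tissue, and its marker genes were present. Of 32 VMN genes in the files, 31 were tested, 20 of them positive with a median of 0.10. Summed levels were 3439, 3528 and 3187 CPM in CTRL and 3907, 3929 and 3244 in DN, and the groups overlapped. Nr5a1, the gene of SF1 (ENSMUSG00000026751, chromosome 2, 38692656 to 38714542), had 4.99, 7.56 and 3.37 CPM in CTRL and 16.5, 17.6 and 12.1 in DN. Each DN input was above each CTRL input, but the log2 fold change of 1.53 ± 0.72 had a 95% interval of -0.04 to 3.10 (edgeR unadjusted p = 0.0559). Gda, a guanine deaminase abundant in VMN neurons, had 201, 177 and 127 CPM in CTRL and 304, 209 and 214 in DN (0.53 ± 0.24), with DN above CTRL by little. Sox14, a transcription factor, went the other way, with 3.30, 1.73 and 6.28 CPM in CTRL and 0.723, 0.310 and 0.512 in DN (-2.84 ± 1.26, edgeR unadjusted p = 0.0441). Cckbr, the cholecystokinin B receptor, was named after its value was seen, at 1.79.

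Neurons beside the VMN can enter a dissection. Genes of arcuate and dorsomedial neurons had 14 of 18 positive (median 0.23), and their sums did not overlap, at 897, 862 and 789 CPM in CTRL and 990.2, 1109.9 and 955 in DN. Of the 18, 1 was apart and higher in DN and 3 were apart and lower, beside 4.87% and 5.58% of nuclear genes. Sst, the precursor of somatostatin, had 239, 259.7 and 242 CPM in CTRL and 311, 301 and 320.0 in DN, all DN inputs being higher (0.33 ± 0.17). The genes apart and lower, named after their values were seen, were those of the neuropeptides galanin (Gal, -0.93 ± 0.54) and growth hormone releasing hormone (Ghrh, -0.74 ± 0.43), and Npvf, a precursor of RFamide peptides (-1.42 ± 0.83). Prlr, the prolactin receptor, had 243, 228 and 190.2 CPM in CTRL and 236, 351 and 283 in DN with overlap (0.40 ± 0.21). Nr5a2, a relative of Nr5a1, was at 1.95 ± 0.83. Genes of lateral and paraventricular neurons had 9 of 12 positive (median 0.25) and overlapping sums, 1707, 1490.0 and 1363 CPM against 1756, 1677 and 1587. Thalamic and habenular genes, a sign of tissue above the hypothalamus, summed to 788, 799 and 872 CPM in CTRL and 840.2, 759 and 793 in DN, with 4 of 11 positive. Zic1, a transcription factor of that list, had 27.6, 32.3 and 45.2 CPM in CTRL and 16.5, 4.14 and 11.2 in DN (-1.72 ± 0.61), lower in every DN input. How much the cut of the tissue moved with the groups was not tested.

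Genes common to all neurons were higher in DN inputs as a sum. Of 20 tested, 14 were positive with a median of 0.22, and the sums were 14827, 15052 and 16132 CPM in CTRL and 16991, 18281 and 17134 in DN. The lowest DN sum was above the highest CTRL sum. Snap25, a protein of vesicle fusion, had 6827, 6403 and 8219 CPM in CTRL and 8625, 9179 and 8408 in DN (0.29 ± 0.09, edgeR unadjusted p = 0.00904). It made up a large part of each sum. With Snap25 taken off, the sums overlapped, CTRL pool 2 lying above DN pool 1. Syn1, a coat protein of synaptic vesicles, had 993, 1132 and 1304 CPM in CTRL and 1459.8, 1411 and 1401 in DN (0.32 ± 0.13). Both were apart, although CTRL pool 3 lay nearest to DN each time. Of the 20 genes, 3 were apart and higher in DN and 1 was apart and lower, beside 4.87% and 5.58% of nuclear genes. Gap43 of growing axons, the third gene with an unadjusted p under 0.05, was named after its value was seen (0.49 ± 0.20).

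Receptors for the main transmitters summed to 12123, 12686 and 11919.5 CPM in CTRL and 12888, 13082 and 13030 in DN, without overlap but with a median of only 0.06 over 36 genes. Gabbr2 and Grin2d, subunits of the GABA-B and NMDA receptors, were at 0.39 ± 0.15 and 0.82 ± 0.36, and the NMDA subunit Grin3a at -0.60 ± 0.27, all 3 named after their values were seen. Markers of GABA neurons summed to 2411, 2465 and 2089 CPM in CTRL and 2497, 2343 and 2183 in DN, with overlap. Fos, a gene switched on by neuronal activity, had 5.35, 2.46 and 17 CPM in CTRL and 5.60, 0.517 and 10.7 in DN (-0.55 ± 1.12), so its spread within a group covered any difference. Btg2, another early gene, had 9.90, 1.64 and 24.9 CPM in CTRL and 0.723, 0 and 0.307 in DN and was lower in all DN inputs (-5.08 ± 1.44), while the 15 early genes were positive at 8.

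Among glia, markers of oligodendrocyte precursors were apart as a sum. As single genes 2 of the 13 tested, Tnr and Enpp6, were apart, beside 10.4% of all nuclear genes (4.87% higher). Among genes of 500 CPM or more, where Tnr lay, 15.3% were apart, so this count is near the background. Tnr made up most of each sum. The sums were 1457, 1631 and 1598 CPM in CTRL and 1857, 1901 and 1785 in DN, with 8 of 13 positive (median 0.11). Tnr, a matrix protein, had 868, 979 and 988 CPM in CTRL and 1223, 1133 and 1110.1 in DN (0.29 ± 0.12), and Enpp6, a marker of newly forming oligodendrocytes, 36.4, 24.8 and 30.0 in CTRL and 49.4, 119 and 56.2 in DN (1.3 ± 0.43, edgeR unadjusted p = 0.00984). Every DN input was above every CTRL input for both. Mature oligodendrocytes were even, at 3955, 4584 and 5103 CPM in CTRL and 4318, 4790.3 and 4560.3 in DN. Fa2h, an enzyme of myelin lipids, was an exception with 34.1, 28.8 and 22.7 CPM in CTRL and 42.6, 116 and 80.7 in DN (1.48 ± 0.43).

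Astrocyte markers summed to 11555, 12028 and 10337 CPM in CTRL and 10784, 11736 and 10709 in DN, with overlap. Slc1a2, the main glial glutamate transporter, was at -0.16 ± 0.10 with overlapping groups. Glul, glutamine synthetase, and Atp1b2, a sodium pump subunit, were above CTRL in every DN input, at 0.25 ± 0.14 and 0.28 ± 0.12. They were the 2 of 20 astrocyte genes apart and higher, and 1 was apart and lower, beside 4.87% and 5.58% of nuclear genes. Tanycytes and ependyma, the cells lining the third ventricle, had 13 of 18 positive and a median of 0.46, with overlapping sums of 441, 486 and 423 CPM in CTRL and 604, 458 and 534 in DN. Ccdc153, a gene of ciliated ependyma, had 0.892, 0.820 and 2.09 CPM in CTRL and 10.3, 7.55 and 6.86 in DN (2.69 ± 1.03). Of these 18 genes, 2 were apart and higher in DN and 1 was apart and lower. Genes of meninges and choroid plexus had 5 of 13 positive (median -0.59), with Igf2, a growth factor made there, at 118, 197 and 167 CPM in CTRL and 167, 91.7 and 63.1 in DN, DN pool 1 lying within the CTRL range.

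Vessel markers overlapped, at 209, 307 and 372 CPM in CTRL and 290.0, 232 and 303 in DN. Within them, 2 pericyte genes lay on opposite sides. Abcc9, a subunit of the ATP-sensitive potassium channel of pericytes, had 15.2, 24.9 and 68.1 CPM in CTRL and 11.8, 2.79 and 7.06 in DN (-2.31 ± 0.73, edgeR unadjusted p = 0.00812). Rgs5, a regulator of G proteins in the same cells, had 83.1, 128 and 124 CPM in CTRL and 181, 148 and 141 in DN (0.49 ± 0.26). Both were apart, the first lower and the second higher in DN.

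Interferons are cytokines released on viral infection, and they switch on a set of antiviral and antigen-presenting genes in most cells. This set gave the widest spread between inputs of any list with at least 10 genes tested. Its 31 genes summed to 659.9, 968 and 8528 CPM in CTRL pools 1, 2 and 3 and to 1781, 2749 and 3079.9 in the DN pools. CTRL pool 3 was thus the highest and CTRL pools 1 and 2 the lowest of the 6, with all DN pools in between. B2m, the light chain of class I histocompatibility molecules, had 391, 479 and 5119.5 CPM in CTRL and 1075, 1599 and 1520 in DN. Oasl2, an antiviral 2-5 oligoadenylate synthetase-like protein, had 46.0, 141 and 1046 CPM in CTRL and 112, 247 and 495 in DN. Ifit1, which binds foreign RNA ends, had 9.81, 37.4 and 324 CPM in CTRL and 57.8, 126 and 179 in DN. All 3 genes had the same order, CTRL pool 1 lowest and CTRL pool 3 highest, with DN pool 1 below CTRL pool 2 only for Oasl2.

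CTRL pool 3 was the highest input for 22 of the 27 interferon genes tested (81.5%), beside 17.3% of all nuclear genes tested. The pull-down output of the same pool stood out as well: B2m had 98.1, 139 and 1527 CPM in CTRL outputs and 329, 446 and 407 in DN outputs. With all 6 inputs, 8 of 27 interferon genes were positive, with a median of -0.29 and no call. Without CTRL pool 3, 25 of 27 were positive with a median of 1.61, 11 had an unadjusted p under 0.05 and all of them were higher in DN, beside 53.1% positive, a median of 0.045 and 2.39% over all 14022 nuclear genes in that fit. For 12 of the 27 (44.4%) all DN inputs lay above CTRL pools 1 and 2, beside 9.23% of all genes. B2m was then the 1 call (0.00713% of genes tested), at 1.68 ± 0.19 with edgeR adjusted p = 0.0202. In the same fit H2-K1, a class I heavy chain, was at 2.39 ± 0.50, Ifit1 at 2.36 ± 0.62 and Oasl2 at 1.61 ± 0.56. That library was left out because of these genes, after their values were seen, and 2 CTRL pools remained, so the second set of values describes and supports nothing. Mx2, an antiviral GTPase, ran against the rest, with 1.52, 1.09 and 8.83 CPM in CTRL and 0.0904, 0 and 0 in DN.

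Interferon-induced genes are known for promoter elements with spaced GAAA repeats, bound by interferon regulatory factors and STAT complexes. Promoters of B2m and Ifit1 (RefSeq, GRCm38.p6, 250 bases before to 50 after the start, 5′ to 3′ on the gene's strand) are shown because these genes carried the order of the libraries; capitals mark GAAANNGAAA on either strand.
B2m, chr2:122147437-122147736, plus strand: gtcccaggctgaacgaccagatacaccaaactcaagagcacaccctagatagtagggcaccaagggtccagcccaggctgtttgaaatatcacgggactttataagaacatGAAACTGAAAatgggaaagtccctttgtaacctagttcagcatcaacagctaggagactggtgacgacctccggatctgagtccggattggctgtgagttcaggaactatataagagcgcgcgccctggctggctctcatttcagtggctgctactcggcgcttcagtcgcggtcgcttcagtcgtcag
Ifit1, chr19:34640639-34640938, plus strand: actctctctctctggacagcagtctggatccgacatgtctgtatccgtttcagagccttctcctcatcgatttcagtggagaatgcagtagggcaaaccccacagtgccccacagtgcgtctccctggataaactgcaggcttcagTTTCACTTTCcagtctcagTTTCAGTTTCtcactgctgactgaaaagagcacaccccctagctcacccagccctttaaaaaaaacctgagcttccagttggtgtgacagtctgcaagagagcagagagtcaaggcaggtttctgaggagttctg
The motif was found in the windows of 13 of 24 interferon genes with a RefSeq promoter, 54.2%, and in 3.99% of all 27025 genes with one. Oasl2 and H2-K1 had none in this window. A match is a description of the letters and shows no binding.

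Microglia, the brain's resident macrophages, followed the same order in the sum of their genes. Their 19 genes summed to 277, 298 and 1116 CPM in CTRL and 464, 454 and 517 in DN. Ctss, a lysosomal protease, had 35.0, 60.7 and 331 CPM in CTRL and 118, 144 and 131 in DN, and Itgam, the integrin CD11b, 41.6, 42.9 and 215 in CTRL and 69.3, 113 and 85.0 in DN. In both, the DN inputs lay between CTRL pools 1 and 2 and CTRL pool 3. Of 16 tested, 4 were positive with 6 inputs (median -0.41) and, without CTRL pool 3, 11 of 17 (median 0.76). Laptm5, a lysosomal protein of blood and microglia, did not follow either, with 23.2, 24.1 and 47.0 CPM in CTRL and 3.25, 10.2 and 21.8 in DN. Cd3e, a chain of the T cell receptor complex, had 0, 1 and 561 counts in CTRL pools 1, 2 and 3 and 23, 20 and 0 in the DN pools. Cd79a of B cells had at most 1 count in any input, and Alas2 of red cells was at most 8.20 CPM. Genes of glial activation had sums of 340.1, 283 and 668 CPM in CTRL and 398, 434 and 426 in DN. The part of these immune markers in the other differences was not tested.

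**Figure D4:**
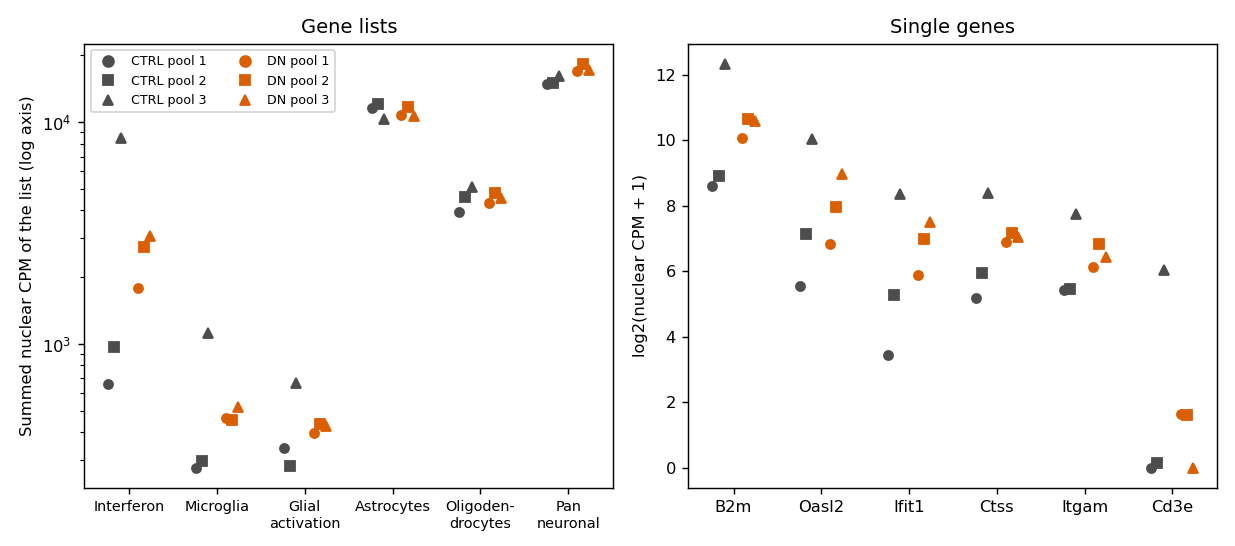
Left, the summed nuclear CPM of 6 gene lists in each input, on a log axis; right, log2 of nuclear CPM plus 1 of 6 single genes. CTRL pool 3 (grey triangle) is the highest point for the interferon, microglia and glial activation sums, where the DN inputs lie above CTRL pools 1 and 2, and the 1 input with over 3 CPM of Cd3e; it is also highest for the oligodendrocyte sum, by far less, but not for astrocyte or pan neuronal genes.

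Genes of protein folding were higher for part of their members. Unfolded protein response genes summed to 3722, 3809 and 3995 CPM in CTRL and 4031, 4251 and 4565 in DN, without overlap. Of 27 tested, 15 were positive (median 0.07, and -0.23 without DN pool 2). Pdia3, a disulfide isomerase of the endoplasmic reticulum, had 414, 485 and 430.1 CPM in CTRL and 563, 582 and 669 in DN (0.45 ± 0.15), and Hsp90b1, its HSP90 chaperone, 867, 787 and 913 in CTRL and 938, 1057 and 1172 in DN (0.30 ± 0.13). Both were apart. Ppp1r15a, the phosphatase subunit GADD34 that ends this response, had 4.55, 1.09 and 4.76 CPM in CTRL and 0, 0 and 0 in DN, below 5 CPM throughout, and Edem1 of protein clearance, named after its value was seen, was at -1.25 ± 0.50. Cytosolic heat shock chaperones summed to 4225, 4244 and 4130.4 CPM in CTRL and 4554, 4322 and 4688 in DN, with Hsph1, an HSP110 chaperone, at 0.34 ± 0.15 and apart.

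Genes of cytosolic ribosomal proteins had 50 of 71 positive (median 0.19, and 0.36 without CTRL pool 3), and 12 were apart higher against 2 lower, beside 4.87% and 5.58% of all nuclear genes. Their sums overlapped, at 2811, 2555 and 3119.8 CPM in CTRL and 3189, 3643 and 3025 in DN. Rpl15 had 77.7, 49.7 and 51.7 CPM in CTRL and 103, 146 and 77.7 in DN (0.86 ± 0.33), and Rpl32, named after its value was seen, was at 0.66 ± 0.28. Rpl10a, a ribosomal protein related in name to the tagged L10, was at 0.21 ± 0.77 with overlap. Gas5, a growth-linked noncoding host gene named after its value was seen, was at 0.60 ± 0.24, and Malat1, an abundant nuclear noncoding RNA, at 0.04 ± 0.09, the narrowest interval of the nuclear genes named (-0.15 to 0.23).

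Fuel metabolism showed small differences. Glycolysis genes summed to 2552, 2602 and 2589 CPM in CTRL and 2871, 3065 and 2682 in DN, apart but with a median of 0.10 over 28 genes. Citric acid cycle genes (7 of 15 positive), fatty acid oxidation (14 of 23), cholesterol synthesis (12 of 19) and ceramide synthesis (5 of 14) had overlapping sums. Acly, which makes cytosolic acetyl-CoA for fatty acids, was apart and higher in DN (84.4, 112 and 91.9 in CTRL and 180.4, 129 and 116 CPM in DN, 0.56 ± 0.27). Clock genes had 7 of 16 positive with overlapping sums.

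Genes of the Y chromosome offered a check on single genes, since all are carried by the same cells. Uty had 50.1, 39.0 and 32.2 CPM in CTRL and 70.6, 105 and 97.1 in DN, apart and higher (1.17 ± 0.34, edgeR unadjusted p = 0.00503). Kdm5d had 45.8, 68.1 and 41.4 CPM in CTRL and 30.6, 34.4 and 21.4 in DN, apart and lower (-0.84 ± 0.42), and Ddx3y 154, 185 and 133 in CTRL and 94.8, 105 and 145 in DN with overlap (-0.45 ± 0.26). Genes of 1 chromosome thus differed in opposite directions by about 1 log2 unit at these levels. Xist, the transcript of the inactive X chromosome, had 1 count over all 6 inputs.

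**Figure D5:**
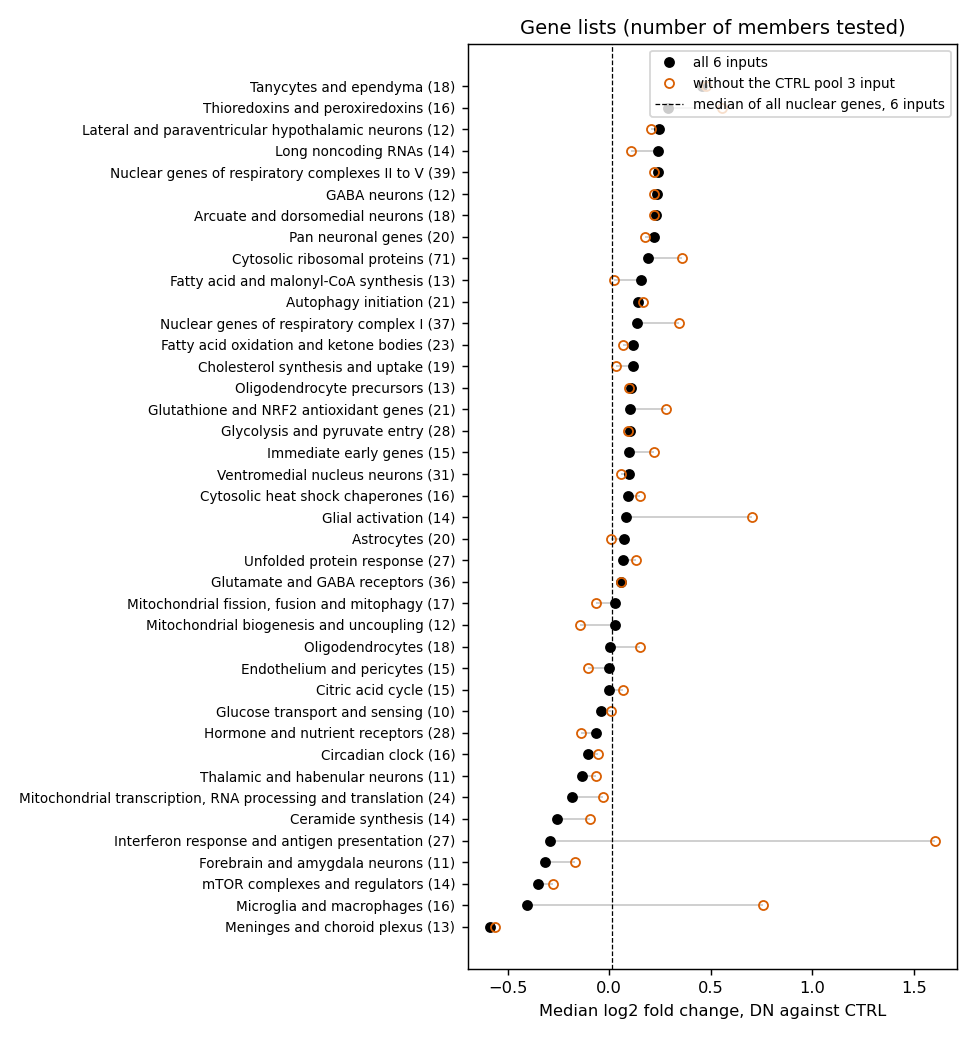
Each row is a gene list with at least 10 members tested (40 lists), with the median log2 fold change of DN against CTRL over all 6 inputs (filled) and without the CTRL pool 3 input (open); the dashed line is the median of all nuclear genes, 0.01. Over all 6 inputs the medians run from -0.59 (meninges and choroid plexus) to 0.46 (tanycytes and ependyma), and the interferon list moves most, from -0.29 to 1.61.

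The difference between DN and CTRL in the inputs was set against that in the outputs of the same pools. In a fit of all 12 libraries, edgeR called 0 of 15011 genes (0% called) for a difference between the 2 effects, with the smallest adjusted p at 0.283 and 933 genes (6.22%) at an unadjusted p under 0.05. With the pool as a block it called 0 as well (589 genes at an unadjusted p under 0.05), while DESeq2 without a block called 91. Some of the 91 had log2 differences of a size that counts near 0 give. Examples were 44.2 for Gm29538 and -24.8 for Adam5, which had 0 counts in every DN input. By edgeR the gene with the smallest p was Itga6, lower in DN inputs as given above and higher in DN outputs (3.39, 1.87 and 4.17 CPM in CTRL outputs, 23.5, 37.9 and 18.6 in DN outputs). The difference of its effects was -5.50 ± 0.93 (unadjusted p = 1.89e-05, adjusted p = 0.283). Txn2, higher in DN inputs, had 12.5, 13.3 and 14.1 CPM in CTRL outputs and 2.71, 6.87 and 3.55 in DN outputs, lower in all 3 (difference of effects 3.34 ± 0.99, adjusted p = 0.691). Nr5a1 differed by 1.56 ± 0.74 and the mitochondrial genes by -0.23 to 0.27, none past the threshold.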

How the data were processed

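Bulk RNA-seq libraries were amplified linearly with the Ovation RNA-Amplification System V2, per the labels' protocols, without molecular identifiers being mentioned. The authors deposited raw read counts per gene for each library. Per the submitters' processing notes the tools were cutadapt 1.3, STAR 2.4.2a and HTSeq 0.6.1 on build GRCm38. The annotation release and the strand setting are not stated there. The last 5 rows of each table name no gene (16.1% to 17.0% of the file in inputs, of which reads not unique took 10.8% to 11.7%) and were left out.

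The 3 DN and 3 CTRL inputs were compared with edgeR 4.0.16 (quasi-likelihood test, TMM scaling, filterByExpr with a minimum count of 10 and total of 15, Benjamini-Hochberg adjustment at 0.05), once with all genes and once with nuclear genes alone, in R 4.3.3. Alternatives used DESeq2 1.42.0, limma-voom (limma 3.58.1, with sample weights), other scalings and filters, a replicate block, 1 fit of all 12 libraries, and each library left out. Values without CTRL replicate 3, mitochondrial counts per nuclear count and genes at equal depth were added after seeing the data. The difference between inputs and outputs was an interaction term. The scripts were tested on simulated data. Gene list medians use the nuclear scaling; scaling with all genes is the alternative. Copies of mitochondrial genes were sought with blastn 2.17.0 at 98% identity among GENCODE M21 transcripts, and promoters are from RefSeq.

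Named were: the mitochondrial protein and ribosomal RNA genes, AMPK subunits, Stk11, Nr5a1, Fos, Txn2 and Rpl10a; every called gene; the 12 higher and 12 lower genes defined in the text; and of each of 45 gene lists up to 4 most abundant members and the member with the smallest p. The members and lists were chosen with earlier results of these data known. Other genes are marked in the text as chosen after their values were seen, as were Cd79a and Xist, both at or near 0 counts. Same-numbered inputs did not deviate together (r from -0.0203 to 0.0105 for the same number), so the numbers do not pair them. Intervals of ratios of counts cover counting error only. A few genes that the rule names are not reported here.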

Additional observations from a re-analysis of the deposited data

Results flagged for a closer look

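For 5 of 97 named genes all DN inputs lay on 1 side of all CTRL inputs while all DN outputs lay on the other side of all CTRL outputs. The same held for 63 of 13269 genes tested (0.475%), and many of the named genes had been chosen for their separation in inputs. Of the 97, the outputs overlapped for 70, were apart and higher in DN for 13, and apart and lower for 4. The mitochondrial genes among the 97 had no output level on the nuclear scale and could not be among the 5. Itga6 had a difference of effects, inputs less outputs, of -5.50 on the log2 scale (edgeR adjusted p = 0.283), and Ppp1r8 had -4.37 (adjusted p = 0.691). Txn2, the mitochondrial thioredoxin, was the 1 gene of these higher in DN inputs and lower in DN outputs, at 3.34. Kdm5d, a demethylase gene of the Y chromosome, had -2.26, and Zic1, a transcription factor of thalamic and habenular neurons, -3.09. None passed by edgeR over the 15011 genes tested. DESeq2 called Itga6, Ppp1r8, Kdm5d and Txn2. The genes had been named for other reasons, Itga6 and Ppp1r8 for their separation in inputs.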

How the results depend on the processing

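In the fit of all genes, where edgeR called 1, the count was 2 with DESeq2, 8 with limma-voom, 39 with no filter on low counts (26 higher), and 0 with DESeq2 size factors, upper quartile scaling, a mean of at least 5 CPM, or 1 fit of all 12 libraries. It was 0 to 8 with 1 library left out, 8 without CTRL pool 3. With nuclear genes alone it was 0, and 2 with DESeq2, 1 with limma-voom, 15 with no filter (11 higher) and 0 to 1 with 1 library left out. For inputs less outputs it was 0, and 91 with DESeq2 and 54 with no filter. The mitochondrial share differed by 2.25 to 3.37 points with 1 library left out. Causes were not tested.

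With the replicate number as a block edgeR called 0 genes in all 3 fits. The block turned the sign of B2m (0.59), Oasl2 (0.36), Ifit1 (1.19), Ctss (0.61), Itgam (0.29), H2-K1 (0.95) and Cd3e (2.16). With limma-voom these were 0.87, 0.78, 1.59, 0.84, 0.47, 1.35 and 0.21, and Prkab2 was -0.035. Malat1 was -0.0084 with upper quartile scaling.

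With 1 library left out, log2 fold changes that crossed 0 ran as follows: mt-Nd3 -0.091 to 0.50, Prkaa1 -0.12 to 0.73, Prkab1 -1.03 to 0.088, Prkab2 -0.18 to 0.33, Prkag1 -0.14 to 0.75, Stk11 -0.070 to 0.90, Fos -1.43 to 0.52, Rpl10a -0.34 to 0.59, B2m -0.97 to 1.68, Oasl2 -1.19 to 1.61, Ifit1 -0.55 to 2.36, Ctss -0.55 to 1.45, Itgam -0.51 to 1.07, Malat1 -0.0097 to 0.11, H2-K1 -0.58 to 2.39 and Cd3e -4.51 to 4.61. Of 108 named genes, 92 kept their sign under every alternative run. Of 360 list medians under alternatives, 47 moved by more than the spread, in 27 of 45 lists, and 46 changed sign (44 of them with 1 library left out), in 19 lists whose medians lay from -0.41 to 0.25. Below 5 CPM the median 95% half-width of 2.92 limits what these libraries can show.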

Other observations

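None of the genes in these paragraphs passed the threshold by edgeR. Receptors for hormones and nutrients had 10 of 28 positive (median -0.07, and 0.080 without CTRL pool 2). Only Insr, the insulin receptor, was apart, with 106, 114 and 96.9 CPM in CTRL and 116, 139.6 and 159.6 in DN (0.39 ± 0.25), and it was named after its values were seen. Cnr1, the cannabinoid receptor of neurons, had 186, 218 and 143 CPM in CTRL and 147, 107 and 126 in DN. The groups overlapped by DN pool 1 and CTRL pool 3 (-0.52 ± 0.24, unadjusted p = 0.0528). Forebrain and amygdala genes, a sign of tissue beside the hypothalamus, had 5 of 11 positive (median -0.32, and 0.069 without DN pool 2 and 0.20 without CTRL pool 2). Of these, 2 were apart and higher in DN and 1 was apart and lower, beside 4.87% and 5.58% of nuclear genes. Drd2, the dopamine D2 receptor, had 22.5, 23.0 and 21 CPM in CTRL and 34.4, 26.8 and 36.1 in DN (0.55 ± 0.46). The lower one, Ppp1r1b, the striatal signalling protein DARPP-32, had 2.41, 2.19 and 5.35 CPM in CTRL and 0.542, 0.103 and 0.307 in DN (-3.32 ± 1.34).

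Among genes of lipid synthesis, Acacb, the acetyl-CoA carboxylase at the mitochondrial surface and a known substrate of AMPK, had 2.23, 3.83 and 2.44 CPM in CTRL and 0.633, 0 and 0.205 in DN, all DN inputs being lower at a level of few counts (-3.27 ± 1.49, unadjusted p = 0.0486). Degs1, which makes the last step to ceramide, had 144, 194 and 193 CPM in CTRL and 234, 220.1 and 236 in DN, all DN inputs being higher (0.38 ± 0.21, unadjusted p = 0.0910).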
